A study of Homo sapiens with 5 samples.

Results

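The genes described here are the 48 genes of the matrix metalloproteinases, the ADAMTS proteases, their TIMP inhibitors and the plasminogen activator system that were listed for the MCF10A open chromatin data, out of 19663 protein-coding genes of GENCODE release 44. They were chosen by name, with earlier results of these data known. A hotspot, which is a region of local read enrichment in ATAC-seq, was counted at a gene's promoter when it overlapped the 1000 bp on either side of any transcription start site (TSS), and was assigned to a gene when the nearest protein-coding TSS within 100 kb was that of the gene. Of 181723 hotspots in the list, 420 belonged to the 48 genes. The 9 MMP genes that lie next to each other on chromosome 11 hold 107 of them and are described apart from the other 39 genes, which hold 313.

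MCF10A is an immortalized, non-tumorigenic line of human mammary epithelial cells. The cells were at baseline, with no further treatment. Their medium held per ml 10 µg of insulin, 0.5 µg of hydrocortisone, 20 ng of EGF and 100 ng of cholera toxin, besides 5% horse serum. ATAC-seq, in which the Tn5 transposase inserts adapters into accessible DNA, was performed on 5 replicates with paired reads of 75 bases. The replicates were pooled before hotspots were called, so that each hotspot has 1 score, from 4.36 to 912 with a median of 5.81, no value has a replicate error, and no difference given here was tested. The sources used here do not give the scale of the score, which therefore serves only to order hotspots. The top 10% of all hotspots have a score of at least 16.1. The labels do not say whether the replicates were separate cultures. Depth is unknown, and intervals are 95% Wilson intervals that cover counting error only.

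Matrix metalloproteinases (MMPs) are zinc endopeptidases that are made as inactive precursors and that cleave collagens, laminins and other proteins around the cell. TIMPs bind their active sites and inhibit them. ADAMTS proteases cleave proteoglycans and procollagens, and the urokinase PLAU, held at the cell surface by its receptor PLAUR, turns plasminogen into plasmin, which can activate MMP precursors. In the mammary gland these enzymes take part in branching and involution, and several of the MMP genes on chromosome 11 are known to carry AP-1 sites near their starts.

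The cell type was checked first by the promoters of marker genes. All 9 markers of mammary and basal epithelium, among them the basal keratin gene KRT5 and the cadherin gene CDH1, had a promoter hotspot, with scores from 18.0 to 35.3. The endothelial markers had one at 4 of 4 promoters, all with low scores between 4.96 and 6.3. Promoter hotspots stood at 6 of 8 fibroblast markers (COL3A1 and LUM had none), with scores from 5.07 to 24.1, and the highest, at COL1A1, lay inside the epithelial range. They stood at 3 of 6 immune markers (PTPRC, CD3E and LYZ had none), with scores of 16.5 at CD14, 10.9 at CD68 and 5.15 at CD79A. Markers of the other cell types thus had promoter hotspots too, most of them with lower scores. Of all protein-coding genes, 74.9% had a promoter hotspot. The median of their highest promoter score was 20.7, which lies inside the range of the epithelial markers. In pooled cells, a site that is open in few cells and a site that is weakly open in all cells cannot be told apart.

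The following windows of 120 bases are shown because they lie at the centre of the member hotspots that carry an AP-1 site (TGAGTCA, or TGACTCA on the other strand, in capitals) and belong to the top 10% of scores, at MMP9, MMP20 and PLAU. A window at PLAUR with a lower score is added, since PLAUR had the highest promoter score of all 48 genes. Sequences are on the plus strand of hg38.
MMP9 (chr20:45993378-45993497, score 34.9, upstream of the gene): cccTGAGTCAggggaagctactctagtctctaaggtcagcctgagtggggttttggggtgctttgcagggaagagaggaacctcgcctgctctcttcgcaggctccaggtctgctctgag
MMP20 (chr11:102599940-102600059, score 17.6, intron): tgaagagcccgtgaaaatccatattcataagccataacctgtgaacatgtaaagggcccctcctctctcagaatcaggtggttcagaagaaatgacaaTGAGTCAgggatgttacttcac
PLAU (chr10:73932436-73932555, score 18.0, downstream of the gene): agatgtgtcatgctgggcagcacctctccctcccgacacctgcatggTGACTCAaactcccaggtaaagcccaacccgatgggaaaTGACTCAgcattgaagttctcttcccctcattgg
PLAUR (chr19:43675557-43675676, score 10.9, upstream of the gene): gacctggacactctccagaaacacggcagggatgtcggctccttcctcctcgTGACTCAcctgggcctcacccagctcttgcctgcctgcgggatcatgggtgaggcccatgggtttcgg
The PLAU window holds 2 AP-1 sites and the others 1 each. The MMP9 hotspot began or ended no closer than 14795 bp to the start of MMP9, which had no promoter hotspot of its own, and the PLAU hotspot lay 20897 bp from the nearest PLAU start.

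Promoter sequence is shown for a pair of genes of the chromosome 11 cluster, of which one had a promoter hotspot and the other had none. The 250 bases before the RefSeq start of each gene (GRCh38.p14) are printed with AP-1 sites and the TATA box motif (TATAAA, or its reverse complement) in capitals, and those of TIMP1 are added as the promoter with the highest score among the inhibitors. Of PLAUR, only the AP-1 site with its flanks is shown.
MMP7 (chr11:102530748-102530997, minus strand, no hotspot): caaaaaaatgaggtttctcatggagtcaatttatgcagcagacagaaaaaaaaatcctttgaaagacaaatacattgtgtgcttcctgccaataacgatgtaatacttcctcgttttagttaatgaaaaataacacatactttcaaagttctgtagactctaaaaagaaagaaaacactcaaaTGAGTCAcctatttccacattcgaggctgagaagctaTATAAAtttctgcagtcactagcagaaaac
MMP10 (chr11:102780629-102780878, minus strand, hotspot score 6.66): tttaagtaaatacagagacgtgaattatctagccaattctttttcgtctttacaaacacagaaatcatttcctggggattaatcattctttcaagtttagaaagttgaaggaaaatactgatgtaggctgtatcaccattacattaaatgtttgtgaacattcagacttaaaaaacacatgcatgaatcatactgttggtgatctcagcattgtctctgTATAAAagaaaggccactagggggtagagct
TIMP1 (chrX:47582186-47582435, plus strand, hotspot score 21.9): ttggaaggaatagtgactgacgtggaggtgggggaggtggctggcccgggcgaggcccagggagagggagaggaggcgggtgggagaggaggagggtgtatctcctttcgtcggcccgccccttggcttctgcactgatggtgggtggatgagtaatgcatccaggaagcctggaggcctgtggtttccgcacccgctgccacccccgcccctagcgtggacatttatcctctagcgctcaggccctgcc
PLAUR (chr19:43670338-43670366, minus strand, hotspot score 14.1): tcacaactccaTGAGTCAgggccgagcca
MMP7 carries an AP-1 site and a TATA box motif in these bases, and its nearest hotspot was 3591 bp from its start. MMP10 has the TATA box motif and no AP-1 site in these bases, and a hotspot of score 6.66 covered its start. TIMP1 has neither motif in this window. In the RefSeq table, which holds promoters of 28 of the 48 genes, an AP-1 site was found at 2 of 28 (7.14%, MMP7 and PLAUR) against 5.32% of 15307 genes, and the TATA box motif at 7 of 28 (25%) against 12.5%. Among genes with few CpG dinucleotides at the start, as defined further on, the TATA box motif was found at 6 of 11 members and at 24.8% of all such genes. Of the 5 cluster genes in that table, 4 (MMP7, MMP8, MMP10 and MMP20) have the TATA box motif.

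Fewer of these genes had a promoter hotspot than genes in general, and those hotspots had lower scores. A promoter hotspot was found at 29 of 48 genes (60.4%, interval 46.3 to 73.0%), against 74.9% of all protein-coding genes. Outside the chromosome 11 cluster it was found at 26 of 39 (66.7%, interval 51.0 to 79.4%), and this interval includes the share over all genes. In the top 10% of scores a promoter hotspot was found at 6 of 48 (12.5%), against 46.8% of all genes. Outside the cluster this was 6 of 39 (15.4%). The median of the highest promoter score was 10.1 over the 29 genes and 20.7 over all genes with a promoter hotspot. A hotspot over a TSS itself was found at 65.1% of all genes, and at the 29 genes except MMP21, TIMP4, ADAMTS3 and ADAMTS19.

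The families differed in these counts. All 4 TIMP genes and all 3 genes of plasminogen activation had a promoter hotspot, as did 10 of 13 MMP genes outside the cluster. In the cluster, 3 of 9 had one (33.3%, interval 12.1 to 64.6%), and of the ADAMTS genes 9 of 19 (47.4%, interval 27.3 to 68.3%). The share over all protein-coding genes was 74.9%. These intervals are wide, since the families are small.

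Promoters differ in their content of CpG dinucleotides, and the genes were divided by the ratio of observed to expected CpG within 500 bp of the canonical start. Among genes with a ratio under 0.5, a promoter hotspot was found at 10 of 19 members (52.6%, interval 31.7 to 72.7%) and at 40.7% of all genes. Among genes with a ratio of 0.5 or more it was found at 19 of 29 members (65.5%, interval 47.3 to 80.1%) and at 88.2% of all genes. The lower count of promoter hotspots thus lay with the CpG-rich promoters, of which 10 had no hotspot. The same held for promoter hotspots in the top 10% of scores. Under a ratio of 0.5 these were found at 10.5% of members and 8.49% of all genes, and at 0.5 or more at 13.8% of members and 61.7% of all genes. The median ratio was 0.193 in the chromosome 11 cluster, 0.73 in the ADAMTS family and 0.726 over all genes. All 9 cluster genes have a ratio under 0.5, from 0.1 at MMP3 to 0.425 at MMP13. Their share with a promoter hotspot (33.3%, interval 12.1 to 64.6%) stands beside 40.7% of all genes with such a ratio, which the interval includes.

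**Figure D1:**
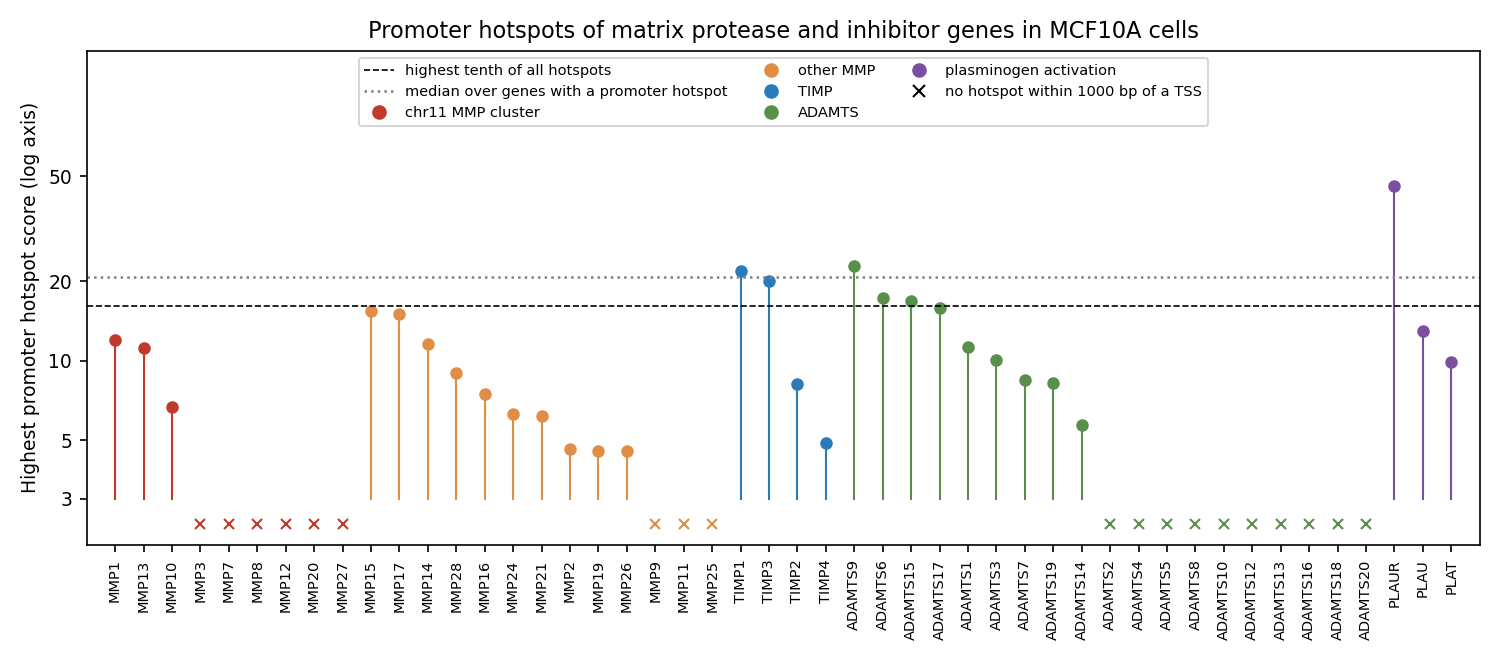
Highest score of a hotspot within 1000 bp of a TSS for each of the 48 genes (log axis), coloured by family, with crosses for genes without one. Only 6 genes reach the top 10% of all hotspots (dashed line, 16.1), and only PLAUR, ADAMTS9 and TIMP1 lie above the median of all genes with a promoter hotspot (dotted line, 20.7).

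Among the activators of plasmin, PLAUR stood highest of all 48 genes. Its hotspot at chr19:43667961-43669469 had a score of 46, above 99.2% of all hotspots, and was 1509 bp wide. It covered another of the 11 PLAUR starts and ended 700 bp from the canonical one, where a further hotspot (chr19:43669862-43670478) had a score of 14.1. Both hold an AP-1 site over their whole length, outside the central 120 bp. PLAU had 3 promoter hotspots. The one over the canonical start (chr10:73910814-73911971) had a score of 13, the one at chr10:73909094-73909475 had 9.58, and the one at chr10:73908580-73908791 had 4.68. Only the hotspot with 9.58 holds an AP-1 site. PLAT, which encodes the tissue-type activator, also had 3, the highest with a score of 9.87 over its canonical start.

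The inhibitors TIMP1 and TIMP3 had promoter scores of 21.9 and 20.0, both in the top 10%. TIMP2, which also takes part in the activation of the MMP2 precursor by MMP14, had 8.16. TIMP4 had 4.89, and its hotspot ended 214 bp from the start. TIMP1, TIMP3 and TIMP4 lie within the synapsin genes SYN1, SYN3 and SYN2, so that hotspots at their promoters also lie inside those genes. TIMP3, whose product binds to the matrix, had 25 assigned hotspots, the joint highest count of the 48 genes together with ADAMTS2. TIMP2 had 11, TIMP4 had 10 and TIMP1 had 5.

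Outside the cluster, the membrane-bound MMPs had the highest MMP promoter scores. MMP15 had 15.5, MMP17, which is anchored by a lipid, had 15 at 771 bp from its start and 5.74 over it, and MMP14, which cleaves collagen at the cell surface and activates the MMP2 precursor, had 11.6. MMP16 with 7.49 and MMP24 with 6.30 were lower, and MMP25, another lipid-anchored enzyme, had no promoter hotspot. MMP28, the epidermal epilysin, had 9. MMP21 had 6.19, above 56.1% of all hotspots. The promoter scores of MMP2 (4.62), MMP19 (4.54) and MMP26 (4.54) were lower than those of most hotspots. The MMP26 hotspot stood at an alternative start, 282661 bp from the canonical one. The gelatinase genes thus had little signal at their starts, since MMP9 had no promoter hotspot and its nearest hotspot, of score 5.33, lay 1560 bp away. MMP11, the furin-activated stromelysin 3, had none within 4701 bp.

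MMP14 had the highest density of assigned hotspots of the 48 genes. Its 8 hotspots lay in the 20.9 kb that are nearer to its starts than to those of any other gene, or 38.4 per 100 kb, with a highest score of 12.4. MMP21 had 18.3 and MMP9 16.2 per 100 kb. MMP16 (3.49), MMP26 (3.59) and MMP24 (3.93) were the sparsest of this group. MMP9 and MMP24 lie on chromosome 20, where the list has 13.8 hotspots per 100 kb against 5.88 in the whole genome.

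In the ADAMTS family, 9 genes had a promoter hotspot and 10 had none. The highest score was at ADAMTS9, which cleaves proteoglycans and had 22.9. Its hotspot lay 905 bp from one of its starts and 1226 bp from the canonical one. ADAMTS6 followed with 17.3, ADAMTS15 with 16.8, the last inside the top 10%, and ADAMTS17 with 15.8, the first outside it. ADAMTS1, another proteoglycanase, had 11.3 over a start 1615 bp from the canonical one, and ADAMTS3, a procollagen N-proteinase, had 10.1 at 851 bp from its start. The remaining scores were 8.42 at ADAMTS7, whose hotspot also lies within 1000 bp of a MORF4L1 start, 8.24 at ADAMTS19 and 5.72 at ADAMTS14.

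The ADAMTS genes without a promoter hotspot were ADAMTS2, ADAMTS4, ADAMTS5, ADAMTS8, ADAMTS10, ADAMTS12, ADAMTS13, ADAMTS16, ADAMTS18 and ADAMTS20. ADAMTS4 and ADAMTS5 encode the main aggrecanases. The nearest hotspot was 1408 bp from a start of ADAMTS4, 1452 bp at ADAMTS13, which encodes the protease of von Willebrand factor, 1563 bp at ADAMTS2 and 1959 bp at ADAMTS16. The distance was 2661 bp at ADAMTS8, 5628 bp at ADAMTS18, 5924 bp at ADAMTS10 and 15758 bp at ADAMTS5. ADAMTS20 had none within 31267 bp and ADAMTS12 none within 77673 bp. The surroundings of these starts thus ranged from a hotspot just beyond the limit to no hotspot within 77673 bp.

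ADAMTS2, a procollagen N-proteinase, illustrates a gene with no promoter hotspot and many hotspots elsewhere. It had 25 assigned hotspots, and 32 lay inside the gene, but the highest assigned score was 9.84. ADAMTS2 and ADAMTS19 lie on chromosome 5 beyond 120 Mb, where the list has 12.8 hotspots per 100 kb. ADAMTS17 had 23 assigned hotspots, and 50 lay inside its 371 kb. ADAMTS14 had 15, and ADAMTS15 and ADAMTS16 had 13 each, as had MMP2. At the other end, ADAMTS10, MMP11 and MMP25 had 1 assigned hotspot each, and ADAMTS4, with only 0.945 kb nearer to its starts than to other genes', had 0, while 94.2% of all genes had at least 1.

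Over all 48 genes the median was 8 assigned hotspots per gene, against 5 over all genes, and 10.6 per 100 kb against 8.47. Without the chromosome 11 cluster the median density was 8.31 and the pooled density 7.47 per 100 kb, no higher than over all genes. Pooled over the bases nearest to the genes, the density was 20.2 per 100 kb in the chromosome 11 cluster, 13.2 in plasminogen activation, 11.7 at the TIMP genes, 8.93 at the other MMP genes, 6.06 at the ADAMTS genes and 7.64 over all genes. The cluster was the densest group, and only the ADAMTS genes lay below all genes. With only the hotspots above the median score, the median over the 48 genes was 4.22 per 100 kb and that over all genes 4.11, so the higher density was hardly seen among these. Of the 420 hotspots, 23 (5.48%) were in the top 10% of scores, against 11.2% of all assigned hotspots.

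**Figure D2:**
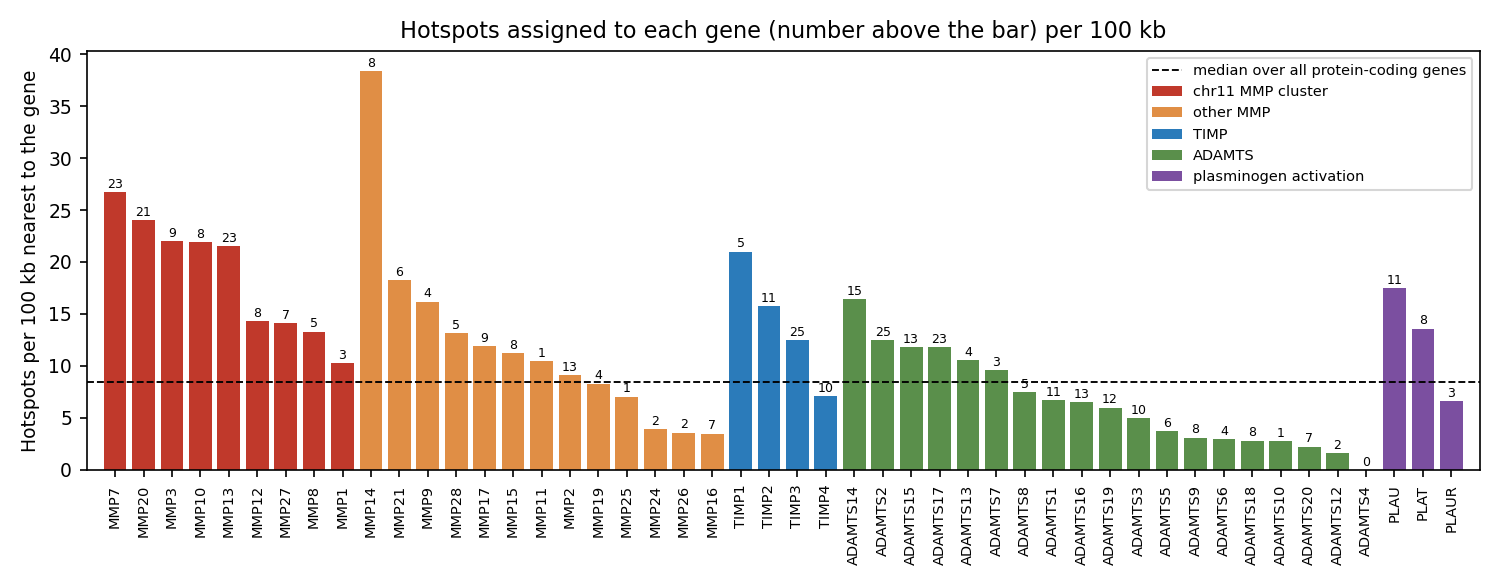
Hotspots per 100 kb of the sequence nearest to each gene, coloured by family, with the number of hotspots above each bar. All 9 genes of the chromosome 11 cluster lie above the median of all protein-coding genes (dashed line, 8.47), while most ADAMTS genes lie below it.

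The cluster spans chr11:102520508-102955732, or 435.2 kb, and all 9 genes are on the minus strand. From the low to the high coordinate these are MMP7, MMP20, MMP27, MMP8, MMP10, MMP1, MMP3, MMP12 and MMP13. The span held 82 hotspots, or 18.8 per 100 kb, against 6.43 on chromosome 11. When the genome was divided into 7085 windows of this length, 33 (0.466%) held as many, and the median window held 22. Of the 82 hotspots, 7 (8.54%) were in the top 10% of scores, against 10.1% on chromosome 11, and the median score was 6.08 against 5.80.

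The dense region was wider than the cluster, and it reached further on the side of MMP7 than on that of MMP13. The 500 kb before MMP7, which hold starts of CFAP300, YAP1, BIRC3, BIRC2 and TMEM123, had 98 hotspots, or 19.6 per 100 kb. The 500 kb beyond MMP13 had 43, or 8.6 per 100 kb. Of these, 16 lay in the 50 kb that begin 450 kb after the first base of the cluster, and 4 in the next 50 kb. Further out, from 500 kb to 5 Mb, the density was 3.2 before and 3.22 after the cluster. The density of the cluster was thus close to that of its neighbours on the YAP1 side and not confined to the MMP genes. The YAP1-side genes differed from the MMP genes at their starts, since CFAP300 had a promoter score of 15.4, YAP1 of 25.4, BIRC3 of 31.4, BIRC2 of 45.1 and TMEM123 of 19.0. The genes beyond MMP13 differed in the same way, with 30.8 at DCUN1D5 and 32.7 at DYNC2H1. DNA copy number in these cells was not analysed here, and its part in the density was not tested.

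Within the cluster, only MMP1, MMP13 and MMP10 had a promoter hotspot. MMP1 encodes the interstitial collagenase, and its hotspot (chr11:102798057-102798588) had a score of 12 and covered the start. MMP13, or collagenase 3, had a hotspot of score 11.2 over its start (chr11:102955432-102955915), and that of MMP10, or stromelysin 2, had 6.66 (chr11:102780536-102780759). MMP3, or stromelysin 1, had its nearest hotspot at 2040 bp with a score of 7.49. The distance was 1792 bp for MMP20, the enamel protease, 3591 bp for matrilysin MMP7, 3841 bp for MMP27, 4560 bp for the neutrophil collagenase MMP8 and 5203 bp for the macrophage elastase MMP12. The promoters of MMP1 and MMP10 were marked, and that of MMP3, which lies next to MMP1, was not.

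The strongest hotspots of the cluster lay away from the starts. Of 107 hotspots assigned to the cluster genes, 66 (61.7%) lay upstream of the assigned gene and 18 (16.8%) in its introns, whereas outside the cluster 37.4% lay upstream and 42.5% in introns. Cluster genes are 7.81 kb (MMP3) to 48.5 kb (MMP20) long, and the others 4.38 kb (TIMP1) to 371 kb (ADAMTS17). The part of gene length in these shares was not tested. MMP7 and MMP13 had 23 assigned hotspots each and MMP20 had 21, and MMP1, with 29.0 kb of nearest sequence, had 3. The 8 assigned hotspots in the top 10% stood at MMP7 (20.8, 20.5, 17.6 and 16.7), MMP8 (30.7), MMP10 (21.8), MMP13 (18.9) and MMP20 (17.6). The MMP7 hotspot of 20.8 lies outside the span of the cluster, 26192 bp downstream of the MMP7 start. The MMP10 hotspot (chr11:102783403-102784204) lay 2775 bp from the MMP10 start, between MMP10 and MMP1. The MMP13 and MMP20 hotspots were intronic, at 4609 and 25015 bp from the start. None of these 8 lay within 1000 bp of a TSS.

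**Figure D3:**
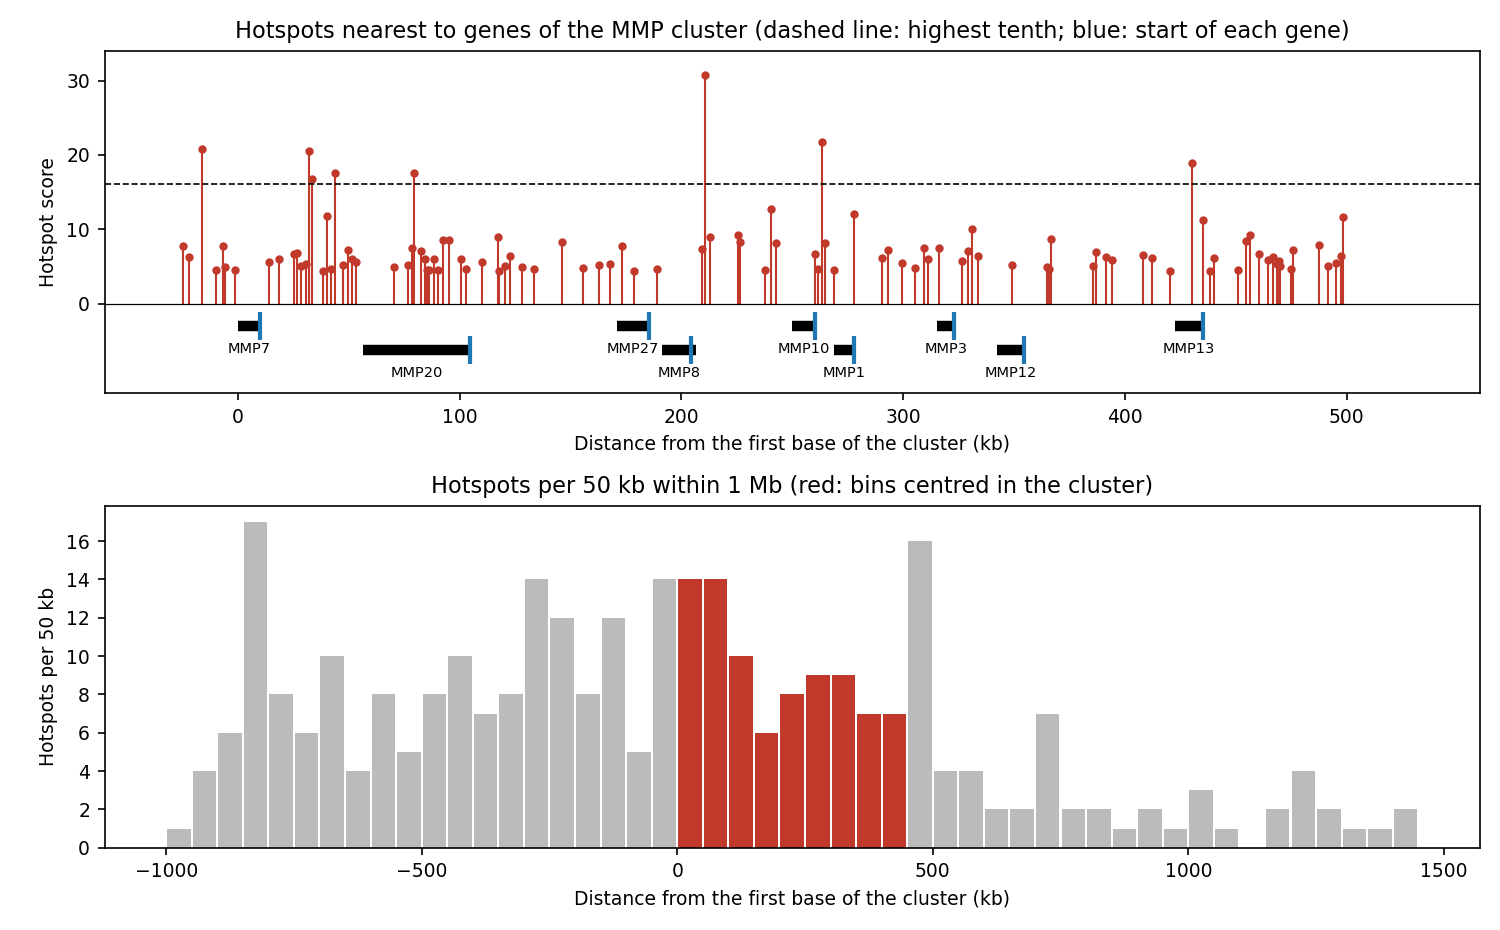
Upper panel, score of each of the 107 hotspots assigned to cluster genes by distance from the first base of the cluster in kb, with gene bodies as black bars and gene starts in blue. Lower panel, number of hotspots per 50 kb within 1 Mb of the cluster, red for bins centred in it. The highest score, 30.7, lies just upstream of MMP8, and bins in the 250 kb before the cluster hold 5 to 14 hotspots, as against 6 to 14 in it. The bin that begins at 450 kb, just beyond the cluster, holds 16, and the next holds 4.

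The highest hotspots of the 48 genes were of different kinds when their sequence was read. For each hotspot, all words of 24 bases were counted in hg38 on both strands, and a hotspot was called mostly repeated when over 50% of its words occurred over 10 times. The strongest assigned hotspot of all, with a score of 46.6 in an intron of ADAMTS20, consists of such words to 95.7%, with a median of 2050 copies. The strongest hotspot of the MMP cluster, which lies upstream of MMP8 and has a score of 30.7, has no such words, but 67.3% of its words of 12 bases occur more than once inside it. The PLAUR promoter hotspot, with nearly the same score as that of ADAMTS20, held 0% of words with over 10 copies.

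The same was seen at other strong hotspots inside the genes. An ADAMTS14 intron held a hotspot of score 31.8 (chr10:70687727-70688745), of whose words 89.8% were in over 10 copies. Inside MMP16, MMP24 and ADAMTS6, hotspots of score 77.8, 62.7 and 57.1 had 100% such words. All 3 were over 100 kb from any TSS or nearer to another gene, so they belong to none of the counts above. Of 8 hotspots in the top 10% that lay inside a gene of the list without being assigned to any of them, 5 were mostly repeated. Among the assigned hotspots in the top 10%, 3 of 23 were (13%: ADAMTS14, ADAMTS20 and the MMP7 hotspot of score 20.8), against 23.9% of all hotspots in the top 10%. At over 1000 bp from a TSS these shares were 3 of 17 (17.6%) and 43.9%, and within 1000 bp of a TSS 0 of 6 and 0.524%.

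The part of read mapping in the scores of repeated hotspots was not tested. Without mostly repeated hotspots, 28 of 48 genes had a promoter hotspot, since the only one of MMP26 was left out, and the count of promoters in the top 10% was again 6. The hotspots assigned were then 267 outside the cluster and 90 in it. Other strong distal hotspots were mostly of sequence in few copies. At MMP9, 19.9% of words were in over 10 copies, at the PLAU hotspot 15.7%, and at the MMP10, MMP13 and MMP20 hotspots 1.28%, 0% and 0%.

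**Figure D4:**
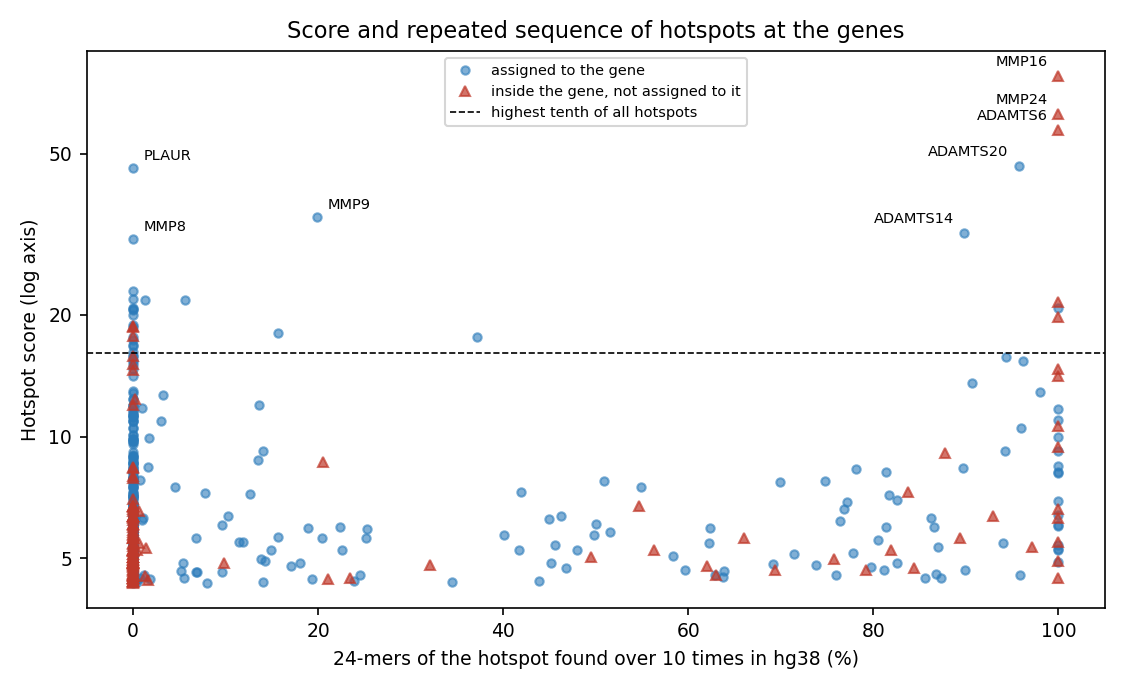
Score of each hotspot (log axis) against the percent of its 24-base words found over 10 times in hg38, for hotspots assigned to the 48 genes (circles) and for hotspots inside a gene but not assigned to it (triangles). The 3 highest scores, inside MMP16, MMP24 and ADAMTS6, lie at 100%, whereas PLAUR (46) and MMP8 (30.7) lie at 0%.

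AP-1 is the factor family that transmits EGF signals to many protease genes, and its site was searched in the 120 bp at the centre of each hotspot. The site was found in 37 of 420 windows (8.81%, interval 6.46 to 11.9%), against 5.81% of all hotspots. In the cluster it was found in 11 of 107 (10.3%, interval 5.84 to 17.5%), at the genes of plasminogen activation in 5 of 22 (22.7%, interval 10.1 to 43.4%), at ADAMTS genes in 13 of 170 (7.65%) and at TIMP genes in 3 of 51 (5.88%). The intervals of the 48 genes, of the cluster (narrowly) and of plasminogen activation lay above the share over all hotspots, and the last rests on 5 windows, of which PLAU has 3, PLAUR 1 and PLAT 1. Hotspots of one gene share their neighbourhood and are not independent of each other. Among hotspots over 1000 bp from a TSS the shares were 9.46% for the 48 genes and 6.22% for all hotspots. The interval of the cluster includes this 6.22%. Outside the cluster the site was found in 26 of 313 windows (8.31%, interval 5.73 to 11.9%), and this interval includes the share over all hotspots.

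In the cluster, 1 of the 8 windows in the top 10% of scores held the site (12.5%, interval 2.24 to 47.1%, at MMP20), against 5.1% of all windows in the top 10%, and the other windows with a site had scores from 4.70 to 8.38. The 11 cluster windows were 4 at MMP13, 2 each at MMP12 and MMP20 and 1 each at MMP3, MMP8 and MMP27. No central window of MMP1, MMP7 or MMP10 held one. Over the whole length of the hotspots, 23 of 107 in the cluster held an AP-1 site (21.5%, interval 14.8 to 30.2%), against 12.6% of all hotspots. Among these were the promoter hotspots of MMP1 (score 12) and MMP13 (11.2). In the top 10% of scores, 4 of 8 cluster hotspots held a site over their whole length, at MMP10, MMP13, MMP7 and MMP20, against 18.7% of all such hotspots. The TEAD motif (GGAATG, both strands), which is bound by the partners of YAP1, was found in 16 of 107 cluster windows (15%, interval 9.42 to 22.9%) against 7.4% of all hotspots. Outside the cluster it was found in 8.31%, the same share as AP-1 there. The RUNX motif (TGTGGT) stood at 10.2% of the 420 windows and 9.77% of all windows. The ETS motif (GGAAGT or CGGAAG) had 8.81% (interval 6.46 to 11.9%) against 10.4%, which the interval includes. In 240 bp it had 19.3% against 19.2%, and in whole hotspots 27.9% against 25.7%. Of the other motifs searched, the TATA box motif had 4.05% against 3.38% and NF-kB had 0.714% against 0.508%. CREB had 0.238% against 0.144% and CEBP 0% against 0.484%. The intervals make no allowance for the number of motifs and gene sets. The full palindromic glucocorticoid response element was found in 0 of 420 windows and in 6 of 181720 of all hotspots, so this search could not show a difference for the receptor of hydrocortisone.

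**Figure D5:**
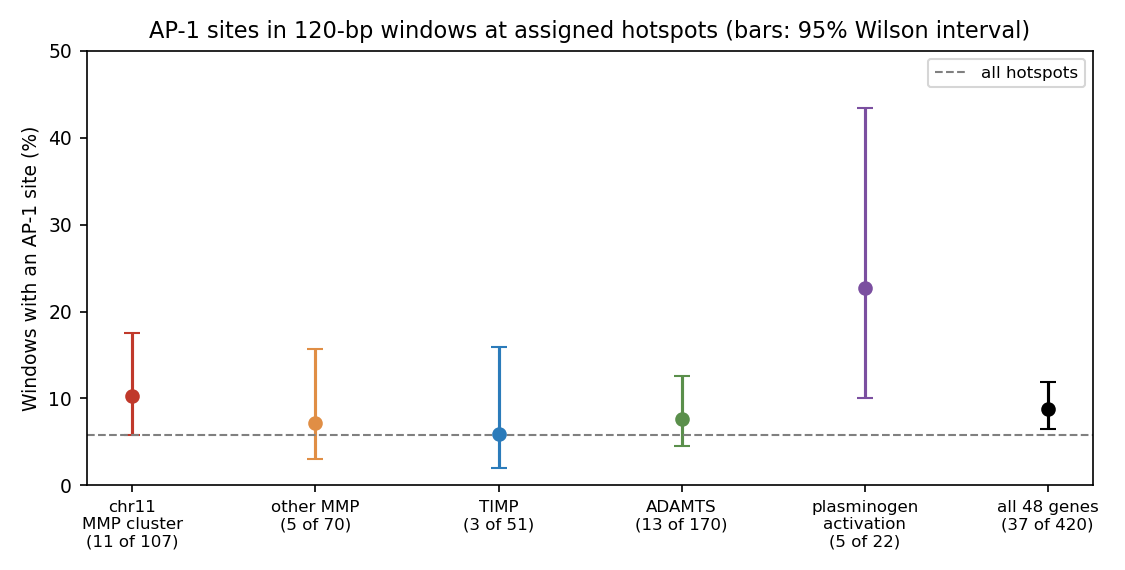
Percent of 120-bp windows at assigned hotspots that hold an AP-1 site, by family and for all 48 genes, with 95% Wilson intervals as bars and the number of windows below. The dashed line is the share over all hotspots, 5.81%. The interval for plasminogen activation (10.1 to 43.4%) lies above the line, that of the cluster starts just above it, and those of the other MMP, TIMP and ADAMTS genes include it.

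Other genes of matrix proteolysis, which were listed apart from the 48, had a promoter hotspot at 32 of 44, where 74.9% of all genes had one. The highest scores were at the sheddase genes ADAM9 (49.6), ADAM17 (39.9) and ADAM10 (37.9), at SPINT2 (38.7), which encodes an inhibitor of membrane serine proteases, and at the plasminogen receptor gene PLGRKT (32.3). The 12 without one were MMP23B, ADAM8, ADAM28, ADAMTSL1, PAPLN, SERPINF2, PLG, A2M, TFPI2, CTSK, CTSS and FAP. PLG encodes plasminogen itself, and A2M and SERPINF2 encode inhibitors that circulate in plasma.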

How the data were processed

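ATAC-seq was measured in 5 replicates of MCF10A cells. Per the labels and the study's methods, the authors mapped reads with Bowtie2 on hg38, merged the 5 alignments, dropped duplicates and ran Hotspot with an FDR limit of 0.01 and a background window of 50 kb. DNA below 600 bp was selected. Removal of mitochondrial reads is described for a coverage track and not for the alignments given to Hotspot. The mapping command printed by the authors sets no option for reads with several mapping places, and no filter on such reads is described before the merge. A Tn5 shift and any later treatment of such reads are not given for these calls in the sources used here. The deposited list gives a score for each region, used as it stands. It holds no read totals, so depth is unknown. Because the replicates were pooled, there is no replicate error and no test was made.

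From GENCODE release 44, 78566 TSSs of 19663 protein-coding genes were taken. With the limit of 100 kb, 73.2% of hotspots had a nearest gene. The territory of a gene is the sequence nearer to its TSSs than to any other within 100 kb. Motifs were matched as letters, on both strands, in the central 120 bp of each hotspot. Words of 24 bases were counted in the 24 chromosomes of hg38. Promoter sequences came from RefSeq. The members, lists and motifs were chosen with earlier results of these data known. All 48 members are named, with full values for the inhibitors, the plasminogen activators, the chromosome 11 cluster, the highest promoter scores and counts, and members without a promoter hotspot. The overlap, assignment, word and motif steps were tested on simulated data. The alternatives were other TSS windows, only canonical TSSs, only hotspots above the median score, another cut for the highest scores, other distance rules, lncRNA starts, other motif windows and, added after seeing the data, leaving out mostly repeated hotspots. Software was Python 3.11.15 with numpy 2.4.6, pandas 2.3.3, scipy 1.17.1 and matplotlib 3.10.9.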

Additional observations from a re-analysis of the deposited data

How the results depend on the processing

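Of 42 values computed under the alternatives for 8 results, 36 lay within 1.5 times the main value or inside its interval, and 6 moved further. With only hotspots above the median score, assigned hotspots fell from 313 to 150 outside the chromosome 11 cluster and from 107 to 61 in it, and the median density fell from 10.6 to 4.22 per 100 kb, since these hotspots are about 1 in 2 of the list by construction. With the top 5% of scores in place of the top 10%, 1 of 48 promoters (PLAUR) was left of 6, against 29.9% of all genes. AP-1 sites rose from 8.81% of windows to 14.5% in 240 bp and to 19.0% in whole hotspots, where all hotspots had 9.72% and 12.6%. Members with a promoter hotspot ranged from 24 to 35 of 48 under the alternatives. The 24 were found with only hotspots above the median score, where 67.3% of all genes had one. The 35 were found with 2000 bp on either side of a TSS, where 78.8% of all genes had one. When lncRNA starts were allowed, 228 hotspots outside the cluster and 73 in it were assigned. Leaving out mostly repeated hotspots was chosen after seeing the data. No paired analysis was possible because the replicates were pooled before the calls, and no replicate could be left out. The unknown depth limits what the absence of a hotspot means: it says that no enrichment passed the threshold in the pooled reads.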
